A study of Danio rerio with 12 samples.

Results

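The genes described here make the black pigment of zebrafish: the regulator mitfa, the melanin enzymes tyr, dct, tyrp1a and tyrp1b, the melanosome matrix proteins pmela and pmelb, and the melanosome membrane transporters oca2, slc45a2 and slc24a5. They were found in the count table by the symbol of each Ensembl identifier, ignoring case, and all copies that share a symbol were kept. The 10 symbols gave 11 of the 32105 identifiers in the table. Of these, 7 were matched by their own symbol. The other 4 carry a symbol shared by a pair of copies, MITF (ENSDARG00000003732 and ENSDARG00000037833) and TYRP1 (ENSDARG00000056151 and ENSDARG00000029204), and the names used here do not say which copy is a and which is b. Copies of MITF and TYRP1 are therefore called the abundant copy, which is ENSDARG00000003732 for MITF and ENSDARG00000056151 for TYRP1, and the scarce copy. One MITF row may thus be mitfb, which was not on the list of symbols.

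RNA was sequenced from whole wild-type zebrafish aged 2 days in 3 groups of 4 libraries. Control animals had no perturbation, and the other groups had 2 ng of synthetic miR-101a or 2 ng of synthetic miR-29a. The labels do not describe the delivery of the microRNAs or a group given a mock reagent. Comparisons of each microRNA with control share the same 4 control libraries, and the microRNA groups were also compared directly.

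Melanin is made inside melanosomes, which are lysosome-related organelles of neural crest-derived melanophores and of the retinal pigment epithelium. Tyrosinase oxidizes tyrosine, dopachrome tautomerase and the tyrosinase-related proteins act on later intermediates, and the pigment is laid down on fibrils of the PMEL protein. Mitf is the transcription factor that starts this programme. In zebrafish, loss of mitfa leaves the body without melanophores, and the golden mutant with pale melanophores is a mutant of slc24a5. In whole animals at this age both melanophores and the retinal pigment epithelium hold these transcripts, so that levels cannot be assigned to either cell type. In such bulk samples fewer cells of a type and less RNA per cell cannot be told apart.

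Libraries held 19804199 to 30383374 counts, and the 11 genes together held 13347 to 29814 counts per library. One library stood apart from the others. TMM scaling factors, which correct for composition, were 0.963 to 1.11 in 11 libraries and 0.729 in miR-29a replicate 3. The 50 most abundant genes took 23.3% of the counts there and 16.6% to 17.4% in the other miR-29a libraries. Across genes, gene length was correlated with the deviation of a library from the mean of its own group. The Spearman coefficient was -0.16 to 0.37 in 11 libraries and -0.40 in miR-29a replicate 3. Replicate 3 is part of the miR-29a mean, so it also affects the coefficients of miR-29a replicates 1, 2 and 4. Relative to the other miR-29a libraries on the log2 scale, it was lower by 3.17 for the scarce MITF copy, 1.66 for SLC24A5 and 1.65 for TYR, higher by 1.44 for pmelb, and within 0.75 for the other 7 pigment genes. Counts of called genes are given with and without it.

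Levels of different genes were compared per length, as RPKM, reads scaled by gene length and library size, with each library's own total. In control animals the abundant TYRP1 copy stood highest, at a mean of 146 RPKM (range 141 to 149.6). It was followed by pmela at 89.2 (87.5 to 90.9) and DCT at 87.7 (84.8 to 92.0), whose ranges overlapped. Then came pmelb at 32.8 (30.5 to 36.9), the scarce TYRP1 copy at 24.4 (23.7 to 24.8), SLC45A2 at 22.2 (21.0 to 23.2) and TYR at 15.4 (14.2 to 16.9), none of which overlapped its neighbour. SLC24A5 at 5.50 (5.11 to 5.74) and the abundant MITF copy at 5.06 (4.55 to 5.39) overlapped each other. OCA2 stood at 2.99 (2.65 to 3.26) and the scarce MITF copy at 0.409 (0.331 to 0.466). TYR transcripts, which encode the enzyme that starts the pathway, were thus at a lower level per length than those of DCT and TYRP1.

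The order differed in the microRNA groups. With miR-101a, mean RPKM was 126 for the abundant TYRP1 copy, 65.3 for DCT and 40.1 for pmela, so that pmela lay below DCT in every library (38.3 to 41.0 against 57.0 to 74.5). With miR-29a, pmelb came after TYR in the order of means, at 8.95 RPKM (4.71 to 13.1) against 13.3 (3.49 to 18.5). These ranges overlapped only through miR-29a replicate 3, which held the lowest TYR and the highest pmelb value.

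**Figure D1:**
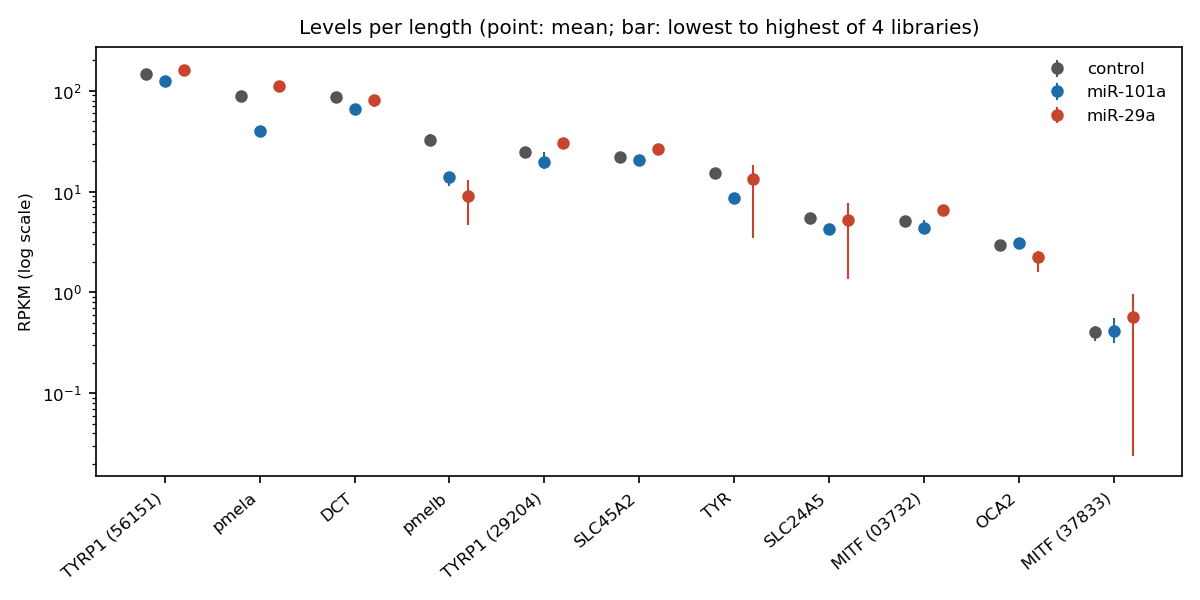
Level per length of each pigment gene in RPKM on a log axis, as the mean (point) and the lowest to highest (bar) of 4 libraries in control, miR-101a and miR-29a; bracketed digits are the end of the Ensembl identifier. The control means run from 146 RPKM for TYRP1 (ENSDARG00000056151) down to 0.409 for MITF (ENSDARG00000037833), and the long miR-29a bars of TYR and SLC24A5 reach down to miR-29a replicate 3.

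Of the 11 pigment genes, 4 were called lower in miR-101a animals. Among them, the matrix genes pmela and pmelb stood at 0.426 and 0.400 of the control level, TYR at 0.536 and DCT at 0.707, and 0 of the 11 genes were called higher. Among all genes tested, 6.97% were called lower and 11.7% higher. The median log2 fold change over the 11 genes was -0.40, against 0.02 over all genes, and all 11 fitted values were below 0. The count of 0 higher was the same by edgeR at an unadjusted p under 0.05, by DESeq2 and by limma voom with quality weights. In miR-29a animals the fitted changes had both signs. There pmelb stood at 0.287 and OCA2 at 0.727 of control and both were called lower, whereas pmela was called higher at 1.25 times control. The pmela call was lost in 12 of 19 alternative settings. Background shares for miR-29a were 11.9% lower and 17.1% higher, and the median was 0.14 over the 11 genes and 0.03 over all genes. The biological coefficient of variation between libraries was 21.7% in the shared fit.

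Without miR-29a replicate 3, which enters the shared estimate of spread, 9 of the 11 genes were called lower with miR-101a and 0 higher, against a background of 24.2% lower and 23.7% higher. With miR-29a, 2 were then lower and 2 higher, against 26.8% and 25.8%. Summed over the 11 genes, the level was 975 to 1019 CPM (counts scaled to library size, after TMM correction) in control libraries, 589 to 728 with miR-101a and 881 to 1291 with miR-29a. The miR-101a range lay below that of control. The miR-29a range spanned it only through miR-29a replicate 3, which gave the value of 1291 CPM. The other miR-29a libraries did not exceed the highest control.

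**Figure D2:**
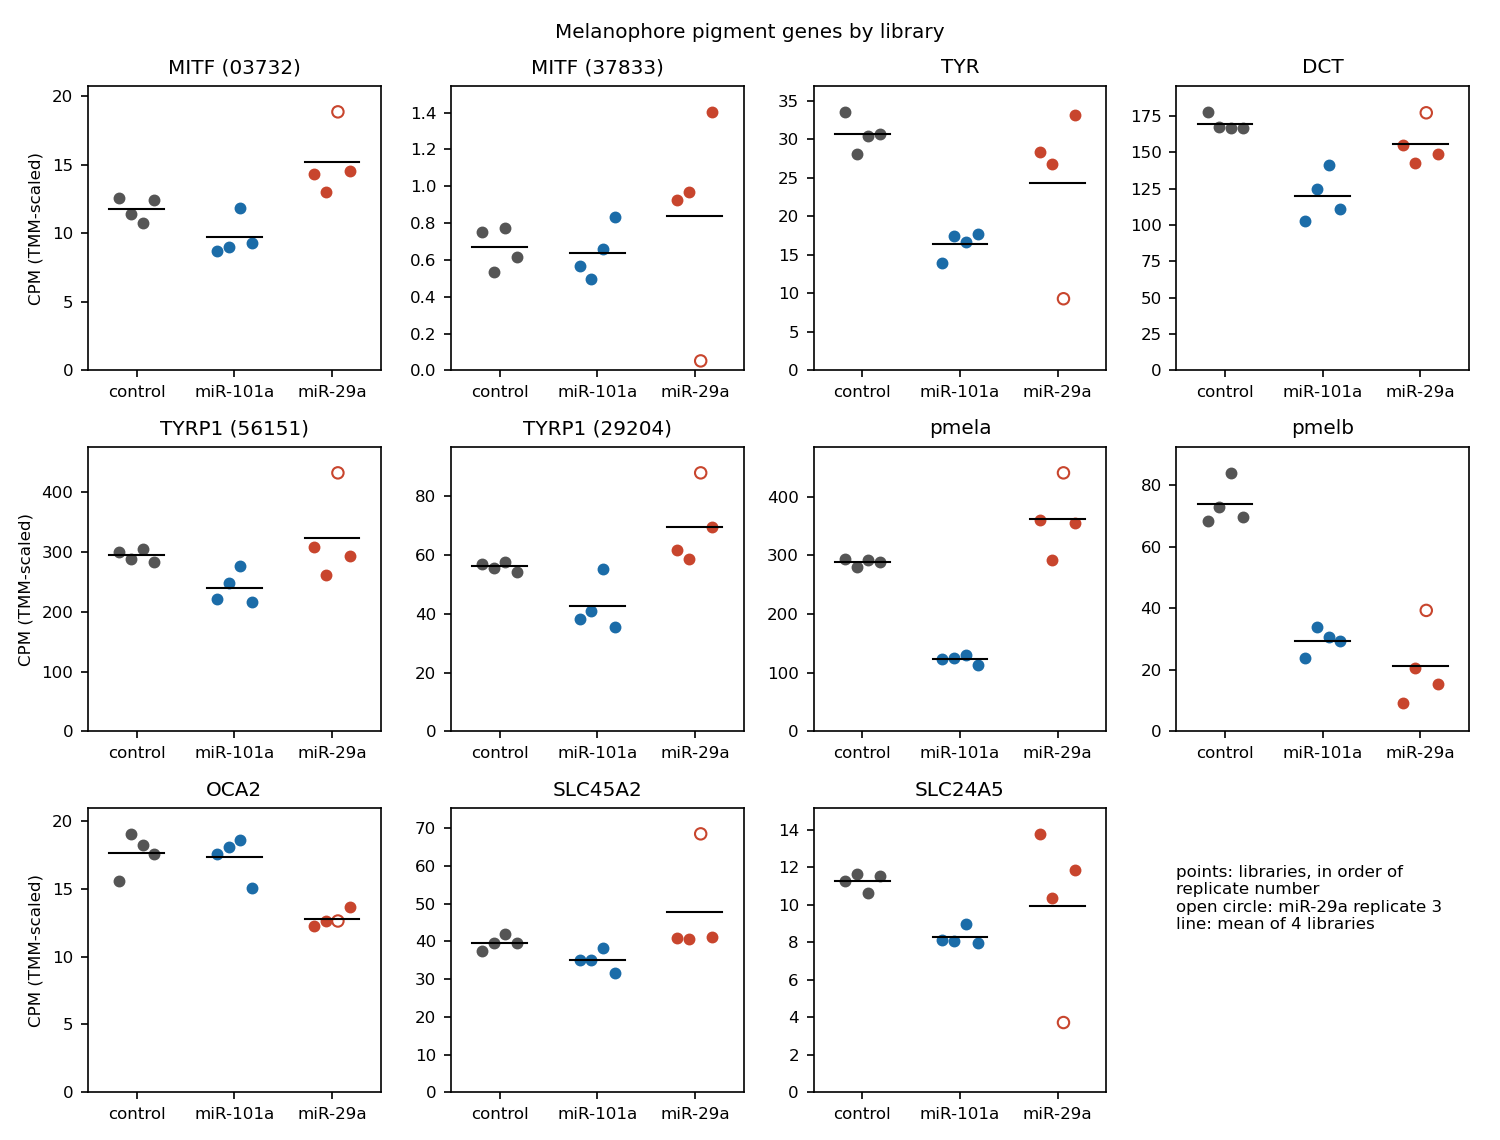
CPM after TMM scaling of each pigment gene, with 1 panel per gene, 1 point per library and a line at the mean of 4; miR-29a replicate 3 is an open circle. All miR-101a libraries lie below all control libraries for TYR, DCT, pmela, pmelb, SLC24A5 and TYRP1 (ENSDARG00000056151), and all miR-29a libraries do so for pmelb and OCA2.

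Mitf drives transcription of most of the enzyme and matrix genes. The abundant MITF copy stood at 12.6, 11.4, 10.8 and 12.4 CPM in control replicates 1 to 4. With miR-101a it was at 8.73, 9.02, 11.9 and 9.34 CPM, and with miR-29a at 14.3, 13.1, 18.9 and 14.6. Thus miR-101a overlapped control through its replicate 3, and every miR-29a library lay above every control. Neither difference passed the test over all genes: the log2 fold change was -0.28 ± 0.14 (SE) with miR-101a (edgeR adjusted p = 0.211) and 0.36 ± 0.14 with miR-29a (0.0706). Groups lay apart in this higher direction in 18.4% of all genes. The miR-101a difference, -0.29 ± 0.10 without miR-29a replicate 3, was then called (edgeR adjusted p = 0.0185), and that of miR-29a, 0.24 ± 0.10, was not (0.0513). Between the microRNA groups the copy was higher with miR-29a by 0.64 ± 0.14 (edgeR adjusted p = 0.00802).

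The scarce MITF copy was near the limit of what these libraries count. It had 18, 15, 22 and 16 counts in control, 18, 10, 18 and 22 with miR-101a, and 22, 25, 1 and 42 with miR-29a. The single count was in miR-29a replicate 3. Log2 fold changes were -0.06 ± 0.50 with miR-101a (edgeR adjusted p = 0.960) and 0.38 ± 0.49 with miR-29a (0.611). Leaving that library out gave 0.73 ± 0.26 for miR-29a, which was called (0.0256).

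TYR encodes tyrosinase, the enzyme that limits the rate of melanin synthesis. Its levels were 33.6, 28.1, 30.4 and 30.7 CPM in control and 13.98, 17.4, 16.7 and 17.7 with miR-101a. The groups did not overlap, and the log2 fold change was -0.90 ± 0.29 (edgeR adjusted p = 0.0469). This call depended on which libraries entered the fit. It held without miR-29a replicate 3 (-0.92 ± 0.08, 9.30e-08) or replicate 4 (0.0416), and was lost without any 1 of the other 10 libraries (0.0593 to 0.128). With miR-29a, TYR was at 28.3, 26.8, 9.31 and 33.1 CPM, within or near the control range apart from replicate 3. The log2 fold change there was -0.33 ± 0.28 (edgeR adjusted p = 0.431), and -0.06 ± 0.09 without replicate 3.

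DCT, which isomerizes dopachrome, was at 178, 167, 166 and 167 CPM in control. It was at 103, 125, 141 and 111 with miR-101a and at 155, 143, 177 and 149 with miR-29a. Every miR-101a library lay below every control and the difference was -0.50 ± 0.10 (edgeR adjusted p = 0.00569), a call kept without each library in turn (at most 0.0224). With miR-29a only replicate 3 reached the control range, and the difference of -0.12 ± 0.10 did not pass the test (0.425). DCT was higher with miR-29a than with miR-101a by 0.38 ± 0.10 (edgeR adjusted p = 0.0254). This last call was lost without miR-101a replicate 1 (0.0777), miR-101a replicate 4 (0.0809) or miR-29a replicate 1 (0.0516).

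Both TYRP1 copies encode tyrosinase-related proteins. The abundant copy was at 300.4, 288, 306 and 284 CPM in control, 222, 247, 276 and 216 with miR-101a, and 309, 262, 432 and 293 with miR-29a. Its miR-101a libraries lay below all controls, yet the difference of -0.29 ± 0.14 did not pass the test (edgeR adjusted p = 0.196). The scarce copy was at 57.1, 55.8, 57.5 and 54.3 CPM in control, 38.3, 41.2, 55.4 and 35.6 with miR-101a, and 61.8, 58.9, 88.0 and 69.5 with miR-29a. Here miR-101a replicate 3 fell within the control range (-0.40 ± 0.15, edgeR adjusted p = 0.0889), and the miR-29a libraries lay above it (0.31 ± 0.15, 0.149). Both copies were called lower with miR-101a when miR-29a replicate 3 was left out, the abundant one at -0.31 ± 0.07 (0.00193) and the scarce one at -0.42 ± 0.12 (0.0123). In the direct comparison the scarce copy was higher with miR-29a by 0.71 ± 0.15 (edgeR adjusted p = 0.00700), and the abundant copy, at 0.43 ± 0.14, was not called (0.0593).

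The PMEL proteins form the fibrils on which melanin is deposited. In control, pmela (ENSDARG00000091298) was at 294, 281, 292 and 288 CPM. With miR-101a it was at 123, 125, 129.8 and 114, and with miR-29a at 359.7, 292, 441 and 355. The miR-101a libraries lay far below control, with a log2 fold change of -1.23 ± 0.11 (edgeR adjusted p = 2.83e-05) that stayed between -1.26 and -1.19 without each library in turn. Of the miR-29a libraries, 3 of 4 lay above all controls and replicate 2 lay within their range. That rise of 0.33 ± 0.11 was called (edgeR adjusted p = 0.0439), and was kept only without miR-29a replicate 2 (0.42, 0.00658) or replicate 3 (0.21, 0.00961); without any 1 of the other 10 libraries it was lost (0.0573 to 0.108).

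The second PMEL gene, pmelb (ENSDARG00000033760), was at 68.5, 72.9, 84.1 and 69.7 CPM in control. It was at 24.0, 34.1, 30.6 and 29.4 with miR-101a and at 9.31, 20.7, 39.3 and 15.5 with miR-29a. Every library of either microRNA lay below every control. The miR-29a libraries ranged more widely among themselves, from 9.31 to 39.3. Log2 fold changes were -1.32 ± 0.33 with miR-101a (edgeR adjusted p = 0.0147; 0.0515 without miR-101a replicate 1) and -1.80 ± 0.33 with miR-29a (0.00174). The miR-29a value was -2.28 ± 0.23 without replicate 3, where pmelb was highest of the 4.

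The ratio of pmela to pmelb counts within a library does not depend on scaling. It was 4.29, 3.85, 3.48 and 4.13 in control, 5.14, 3.68, 4.24 and 3.88 with miR-101a, and 38.6, 14.1, 11.2 and 22.8 with miR-29a. In miR-101a animals both genes fell and their ratio stayed near that of control, with a log2 difference of 0.10 (two-sided exact permutation test, p = 0.543). In miR-29a animals it was higher in all 4 libraries than in any control or miR-101a library. The mean log2 ratio was 4.27 ± 0.79 (SD, n = 4) with miR-29a, 1.97 ± 0.13 in control and 2.07 ± 0.21 with miR-101a. The log2 differences from control and from miR-101a were 2.30 and 2.20 (two-sided exact permutation test, p = 0.0286 each, adjusted p = 0.0571 over 6 tests). That p is the smallest that 4 against 4 libraries can give.

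The ratio of the abundant to the scarce TYRP1 copy moved less. It was 5.26, 5.16, 5.31 and 5.22 in control, 5.79, 6.01, 4.98 and 6.07 with miR-101a, and 4.998, 4.45, 4.91 and 4.21 with miR-29a. The miR-29a libraries lay below all controls, by 0.18 on the log2 scale (two-sided exact permutation test, p = 0.0286, adjusted p = 0.0571). The miR-101a libraries fell on both sides of control (log2 difference 0.12, exact p = 0.143). Between the microRNA groups the log2 difference was -0.30 (exact p = 0.0571, adjusted p = 0.0857). Reads that fit both copies of a pair could be shared out unevenly by counting, which limits each of these ratios.

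**Figure D3:**
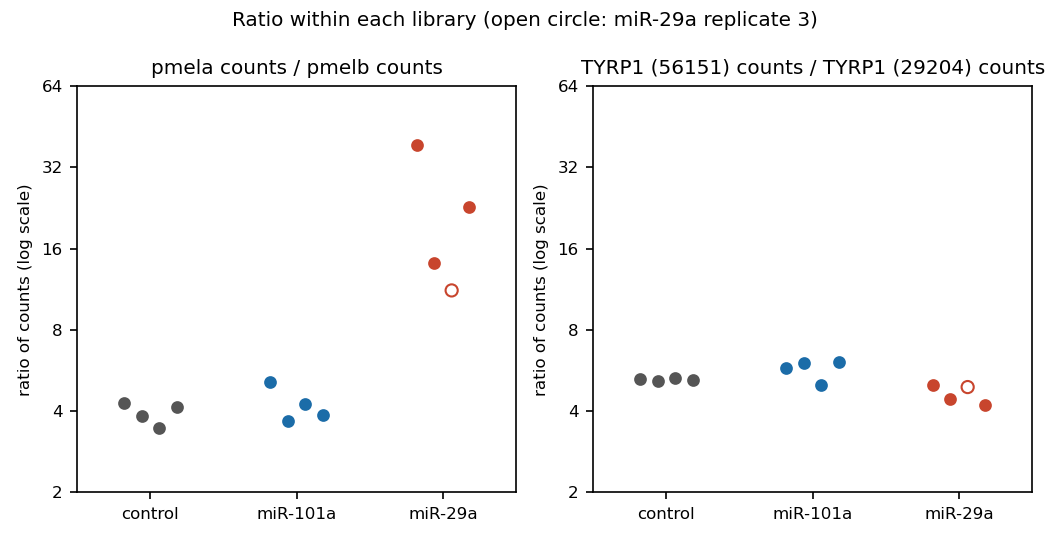
Ratio of counts within each library for pmela to pmelb (left) and for the abundant to the scarce TYRP1 copy (right), on log axes, with 1 point per library and miR-29a replicate 3 as an open circle. The pmela to pmelb ratio was 3.48 to 5.14 in the control and miR-101a libraries and 11.2 to 38.6 with miR-29a, whereas the TYRP1 ratio was 4.21 to 6.07 in all 12.

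OCA2 is a melanosomal membrane protein needed for normal pigment and linked to organelle pH. It was at 15.6, 19.0, 18.2 and 17.5 CPM in control, 17.6, 18.1, 18.6 and 15.0 with miR-101a, and 12.3, 12.6, 12.6 and 13.6 with miR-29a. Control and miR-101a overlapped, with a log2 difference of -0.02 ± 0.10 (edgeR adjusted p = 0.916) whose sign changed when single libraries were left out. All miR-29a libraries, replicate 3 included, lay below all others. The differences were -0.46 ± 0.10 from control (edgeR adjusted p = 0.00448) and -0.44 ± 0.10 from miR-101a (0.0101), and both calls were kept without each library in turn.

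SLC45A2 is a melanosomal transporter and SLC24A5 a cation exchanger. SLC45A2 was at 37.5, 39.5, 42.0 and 39.6 CPM in control, 35.0, 35.1, 38.1 and 31.8 with miR-101a, and 40.9, 40.6, 68.5 and 41.2 with miR-29a. The value of 68.5 was that of miR-29a replicate 3. Log2 fold changes were -0.18 ± 0.16 with miR-101a (edgeR adjusted p = 0.509) and 0.27 ± 0.16 with miR-29a (0.230). SLC24A5 was at 11.2, 11.7, 10.6 and 11.5 CPM in control, 8.13, 8.07, 8.95 and 7.97 with miR-101a, and 13.8, 10.4, 3.72 and 11.8 with miR-29a. All miR-101a libraries lay below control, with a log2 fold change of -0.44 ± 0.29 (edgeR adjusted p = 0.343). The miR-29a libraries spanned the control range (-0.18 ± 0.28, 0.685). Leaving out miR-29a replicate 3 made the miR-101a differences pass, at -0.20 ± 0.06 for SLC45A2 (0.00887) and -0.46 ± 0.09 for SLC24A5 (0.000414), and those of miR-29a, 0.04 and 0.09, were not.

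**Figure D4:**
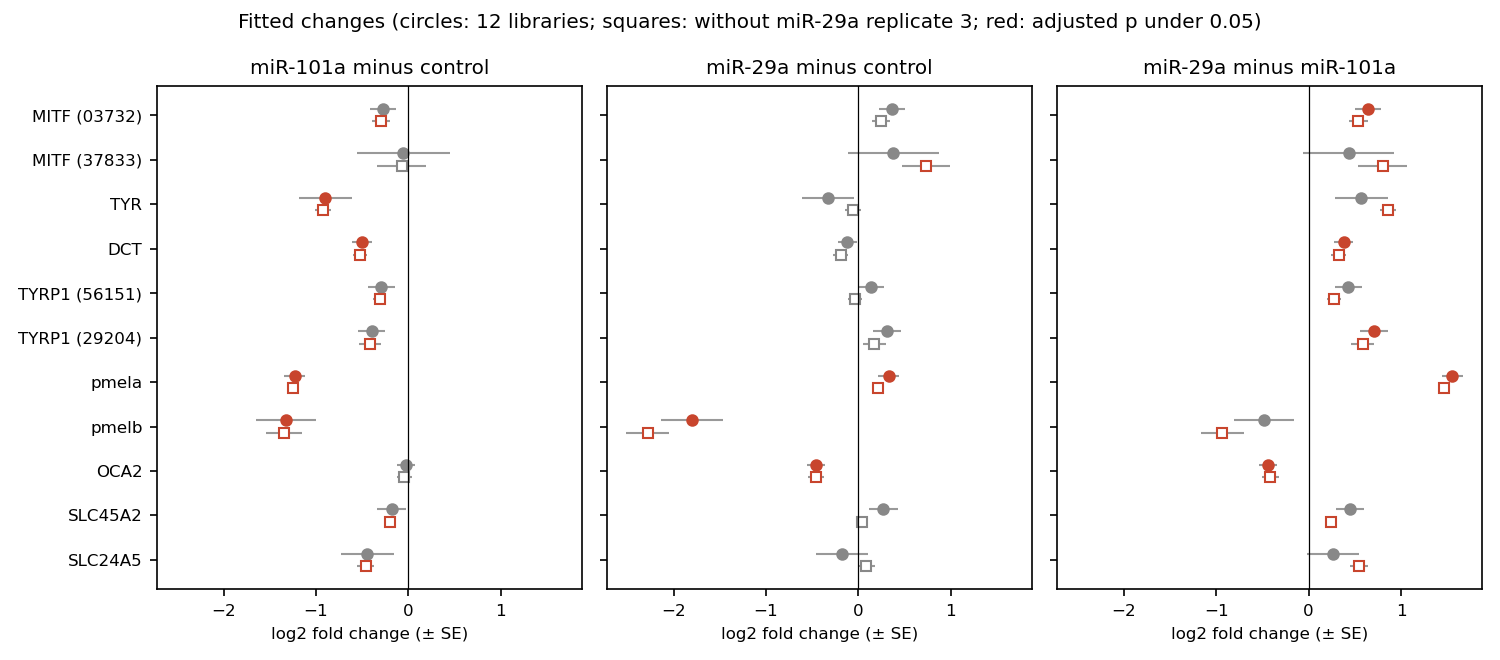
Fitted log2 fold changes with standard errors of the 11 pigment genes in the 3 comparisons, from all 12 libraries (circles) and without miR-29a replicate 3 (squares); red marks an adjusted p under 0.05. In miR-101a minus control all circles lie below 0 and 4 are red, with pmela at -1.23 and pmelb at -1.32; in miR-29a minus control pmelb lies at -1.80 and pmela at 0.33.

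Over the 11 genes with miR-101a, TYR, DCT, pmela, pmelb, SLC24A5 and the abundant TYRP1 copy had groups that did not overlap, all lower, against 20.5% of all genes; 0 lay apart in the higher direction (23.3%). With miR-29a, pmelb and OCA2 did so in the lower direction (15.1% of all genes) and the abundant MITF and scarce TYRP1 copies in the higher (18.4%). Directly compared, pmela, DCT, SLC45A2, the scarce TYRP1 and the abundant MITF copy lay apart in the higher direction with miR-29a (11.6%), and OCA2 in the lower (12%).

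In the direct comparison of the microRNA groups, 4 of the 11 pigment genes were called higher with miR-29a and 1 lower. The higher ones were pmela (1.56 ± 0.11, edgeR adjusted p = 3.19e-05), the scarce TYRP1 copy, the abundant MITF copy and DCT, and OCA2 was the lower one. Of all genes, 8.64% were called higher and 9.23% lower. The median was 0.44, against 0.02 for all genes. Of the 6 genes not called, TYR stood at 0.57 ± 0.28 (edgeR adjusted p = 0.202), SLC45A2 at 0.45 ± 0.16 (0.0685) and pmelb at -0.48 ± 0.33 (0.360). Leaving out miR-29a replicate 3 gave 9 higher and 2 lower, against 21.3% and 22.1%; TYR then stood at 0.86 ± 0.09 (8.33e-07), and pmelb, at -0.93 ± 0.23 (0.0101), joined OCA2 as lower.

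The genes upstream and around melanin synthesis did not all follow. For the lists that follow, the shares of all genes called were 6.97% lower and 11.7% higher with miR-101a. They were 11.9% and 17.1% with miR-29a, and 9.23% and 8.64% in the direct comparison. Of the 18 tested genes of pigment cell specification and signalling, 2 were called lower with miR-101a and 0 higher (median -0.14). These were the Wnt effector LEF1 (-0.40 ± 0.08, edgeR adjusted p = 0.00675) and the melanocortin receptor MC1R (-0.76 ± 0.21, 0.0285), whose call was lost without any 1 of 6 libraries (up to 0.0923). With miR-29a, 1 was lower and 0 higher (median 0.01), the AP-2 transcription factor TFAP2C (-0.30 ± 0.08, 0.0144). SOX10, which specifies neural crest pigment cells, was at 32.2 ± 1.70 CPM in control, 27.6 ± 1.34 with miR-101a and 28.6 ± 1.72 with miR-29a (SD, n = 4), and neither difference was called (edgeR adjusted p = 0.0607 and 0.116). Both were called lower without miR-29a replicate 3, at -0.24 ± 0.06 (0.00197) and -0.22 ± 0.06 (0.00749), and also by DESeq2 on all 12 libraries. KIT, the receptor for melanophore survival and migration, was at 11.3 ± 1.13, 12.2 ± 1.66 and 11.2 ± 6.17 CPM in the same order, with miR-29a replicate 3 at 2.02 CPM. It was not called with either microRNA (edgeR adjusted p = 0.898 and 0.994), and with that library left out it was called higher with miR-29a (0.34 ± 0.11, 0.0127). The list had 6 lower and 1 higher with miR-101a and 3 lower and 6 higher with miR-29a without miR-29a replicate 3. Of all genes, 24.2% were then lower and 23.7% higher with miR-101a, and 26.8% and 25.8% with miR-29a. Directly they were 22.1% and 21.3%, and these shares also apply to the counts without that library in the lists below. With all 12 libraries, edgeR had 0 and 2 higher at an unadjusted p under 0.05. DESeq2 called 0 and 1 higher, and voom with quality weights 1 and 6.

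Directly compared, miR-29a had 2 genes of this list higher and 1 lower than miR-101a. LEF1 was higher by 0.46 ± 0.08 (edgeR adjusted p = 0.00309), and TFAP2C was lower by 0.35 ± 0.08 (-0.35, 0.00961). The channel gene trpm1b, at 0.43 ± 0.14 (0.0486), lost its call without any 1 of 9 libraries (up to 0.123). Without miR-29a replicate 3 the list had 8 higher and 1 lower.

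Of the 42 tested genes of melanosome biogenesis and transport, 15 were called higher and 0 lower with miR-101a (median 0.32), and 25 higher and 0 lower with miR-29a (median 0.49). Most of these proteins also serve lysosomes and endosomes in every cell. BLOC1S6, a subunit of a sorting complex, rose from 16.2 ± 0.543 CPM to 33.7 ± 3.13 with miR-101a (1.06 ± 0.15, edgeR adjusted p = 0.000654). TPCN2, a channel of lysosomes and melanosomes, rose by 0.82 ± 0.10 with miR-101a (0.000168) and 0.86 ± 0.10 with miR-29a (5.96e-05). RAB3IL1, an exchange factor for Rab proteins, rose by 0.60 ± 0.10 (0.00163) and 0.84 ± 0.10 (9.06e-05).

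The sorting-complex gene hps5 rose with miR-29a (0.91 ± 0.11, edgeR adjusted p = 9.94e-05). It was also higher than with miR-101a by 0.88 ± 0.11 (0.000357), as were the lipid kinase gene PIKFYVE by 0.55 ± 0.12 (0.00783) and the adaptor gene AP3M1 by 0.42 ± 0.09 (0.00924). GPR143, a melanosome receptor of pigment cells that is on the same list, was not called, at -0.37 ± 0.23 with miR-101a (0.324) and -0.18 ± 0.23 with miR-29a (0.605). Both were called lower without miR-29a replicate 3, at -0.39 ± 0.08 (0.000829) and -0.55 ± 0.09 (6.83e-05). Counts without miR-29a replicate 3 were 26 higher and 5 lower with miR-101a, and 34 higher and 2 lower with miR-29a. In the direct comparison 7 were higher with miR-29a and 0 lower (median 0.16), or 18 higher and 5 lower without that library. The counts of 0 lower were 2, 0 and 0 at an unadjusted p under 0.05, 1, 0 and 0 with DESeq2, and 5, 1 and 4 with voom quality weights, for miR-101a, miR-29a and the direct comparison.

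Xanthophores and iridophores are the other pigment cells of zebrafish. Xanthophore genes fell with miR-101a in 11 of 14 and rose in 0 (median -0.64). Their summed level was 955 to 1016 CPM in control, 688 to 738 with miR-101a and 824 to 1045 with miR-29a. The lipid-droplet gene plin6 fell by 1.85 ± 0.17 on the log2 scale (-1.85, edgeR adjusted p = 3.35e-05). The transporter genes slc2a11b and slc2a15b stood at -1.05 ± 0.09 (2.19e-05) and -0.91 ± 0.09 (3.44e-05). With miR-29a, 3 fell and 2 rose (median -0.01). Lower were plin6 (-0.70 ± 0.16, 0.00706), slc2a15b (-0.40 ± 0.09, 0.00380) and SOX5 (-0.27 ± 0.06, 0.00762). PAX7 (ENSDARG00000070818; 0.64 ± 0.11, 0.00122) and XDH (0.73 ± 0.16, 0.00454) were higher. A second row that shares the symbol PAX7 (ENSDARG00000100398) was not called with miR-29a.

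Compared directly, 8 xanthophore genes were higher with miR-29a and 0 lower (median 0.71), with XDH at 1.39 ± 0.16 (edgeR adjusted p = 0.000224), slc2a11b at 1.26 ± 0.09 (3.19e-05) and PAX7 (ENSDARG00000070818) at 1.19 ± 0.11 (7.87e-05). With miR-29a replicate 3 left out the list had 13 lower and 0 higher with miR-101a, 4 and 4 with miR-29a, and 12 higher and 0 lower in the direct comparison. The counts of 0 were the same at an unadjusted p under 0.05 and with DESeq2 and voom.

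Of 12 iridophore genes, 1 rose with miR-101a, the endothelin receptor gene EDNRA (0.45 ± 0.08, edgeR adjusted p = 0.00300), and 0 fell (median 0.02). With miR-29a 2 fell and 3 rose (median 0.00). The fallen genes encode purine nucleoside phosphorylases of iridophores, pnp4a (-1.23 ± 0.23, 0.00186) and pnp4b (-2.27 ± 0.44, 0.00233). The risen ones are purine synthesis genes that all cells use, PAICS (1.46 ± 0.18, 0.000105), GART (0.66 ± 0.09, 0.000267) and ATIC (0.50 ± 0.11, 0.00438). Compared with miR-101a, PAICS (1.12 ± 0.18, 0.00139), ATIC (0.74 ± 0.11, 0.000771) and GART (0.43 ± 0.09, 0.00734) were higher with miR-29a, and pnp4b (-1.99 ± 0.45, 0.00929) and EDNRA (-0.33 ± 0.08, 0.0191; up to 0.0611 without any 1 of 4 libraries) lower. Without miR-29a replicate 3 the counts were 3 lower and 4 higher with miR-101a, against 24.2% and 23.7% of all genes. They were 3 and 3 with miR-29a (26.8% and 25.8%), and 4 and 3 directly (22.1% and 21.3%). At an unadjusted p under 0.05, by DESeq2 and by voom, 3 were lower with miR-101a.

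Since the retinal pigment epithelium makes melanin as well, its other markers are given beside the pigment genes. Of 22 tested, 7 fell and 1 rose with miR-101a (median -0.32), and 7 fell and 1 rose with miR-29a (median -0.43). The summed level of the list was 498 to 536 CPM in control, 455 to 497 with miR-101a and 383 to 460 with miR-29a, and none of its genes was at 0 in a whole group. RPE65, the isomerase of the visual cycle and a defining gene of this tissue, is a symbol shared by 3 rows. The names used here do not say which copy each row is, so not every row need mark this tissue. ENSDARG00000094752 was at 28.2 ± 2.398 CPM in control, 22.9 ± 1.36 with miR-101a (-0.30 ± 0.08, edgeR adjusted p = 0.0289) and 18.1 ± 0.491 with miR-29a (-0.64 ± 0.09, 0.000184). ENSDARG00000054420 changed by -0.37 ± 0.11 (0.0300) and -0.70 ± 0.11 (0.000458), and ENSDARG00000007480 by -1.56 ± 0.49 (0.0438) and -1.64 ± 0.49 (0.0263). Their miR-101a calls were lost without any 1 of 7, 8 and 9 libraries (up to 0.102, 0.0983 and 0.129), in the order named, and the miR-29a call of ENSDARG00000007480 without any 1 of 5 (up to 0.0722). That row stood at -2.54 ± 0.26 with miR-29a (9.77e-07) and at -0.95 ± 0.29 against miR-101a (0.0157) without miR-29a replicate 3, where it was highest of the 4.

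Further genes of this list that fell with miR-101a were the retinal dehydrogenase rdh5 (-1.06 ± 0.19, edgeR adjusted p = 0.00261), the opsin RGR (-1.02 ± 0.25, 0.0141) and the transcription factor OTX2 (-0.48 ± 0.13, 0.0250). The OTX2 call was lost without any 1 of 5 libraries (up to 0.0804). OTX2 also fell with miR-29a (-0.86 ± 0.13, 0.000499). BHLHE40, which many tissues express, rose with both (0.92 ± 0.09, 5.87e-05, and 0.78 ± 0.09, 8.55e-05). In whole animals, counts of the other list genes, OTX2 included, could also come from tissues other than this epithelium. Directly compared, 3 were lower with miR-29a, the RPE65 rows ENSDARG00000094752 (-0.34 ± 0.09, 0.0166) and ENSDARG00000054420 (-0.33 ± 0.11, 0.0499) and the collagen gene col8a1a (-0.75 ± 0.20, 0.0207). RGR (1.15 ± 0.25, 0.00782) and otx2a (0.52 ± 0.15, 0.0351) were higher. Of these direct calls, single libraries ended that of ENSDARG00000094752 in 2 cases (up to 0.0541), ENSDARG00000054420 in 10 (up to 0.131), col8a1a in 4 (up to 0.0584) and otx2a in 9 (up to 0.0931). When miR-29a replicate 3 was left out the list had 12 lower and 1 higher with miR-101a and 14 lower and 2 higher with miR-29a, and 11 lower and 3 higher directly.

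Neural retina progenitor genes, which mark the tissue next to that epithelium, fell in 3 of 17 with miR-101a (median -0.38) and in 15 of 17 with miR-29a (median -1.42), with 0 higher in either. Their summed level was 693 to 786 CPM in control, 522 to 557 with miR-101a and 230 to 399.6 with miR-29a. The eye field gene PAX6 (ENSDARG00000045936) changed by -0.41 ± 0.11 with miR-101a (edgeR adjusted p = 0.0197) and -1.32 ± 0.11 with miR-29a (6.45e-06). CRX (ENSDARG00000043483) changed by -1.03 ± 0.33 (0.0486) and -3.05 ± 0.36 (8.05e-05). With miR-101a the PAX6 call was lost without any 1 of 3 libraries (up to 0.0666) and that of CRX without any 1 of 10 (up to 0.140). The list holds another row with the symbol PAX6 (ENSDARG00000103379) and another with the symbol crx (ENSDARG00000011989). Values of these other rows are not given here, so the changes above hold only for the rows named. The homeobox gene hmx4 fell with miR-101a (-0.80 ± 0.17, 0.00604) and rx1 with miR-29a (-1.69 ± 0.18, 3.49e-05).

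Directly compared, 11 genes of this list were lower with miR-29a. Among them were PAX6 (ENSDARG00000045936) at -0.92 ± 0.11 (edgeR adjusted p = 0.000234) and rx1 at -1.30 ± 0.18 (0.000539). Without miR-29a replicate 3, 12 were lower and 1 higher with miR-101a, 17 lower and 0 higher with miR-29a, and 15 and 0 directly. The counts of 0 higher were also 0 at an unadjusted p under 0.05 and with DESeq2; voom with quality weights called 1 higher with miR-101a. Summed levels of the neural retina list lay below every control in both microRNA groups. Those of the epithelial list did so too, but narrowly with miR-101a, at up to 496.5 CPM against at least 497.8 in control. That sum includes BHLHE40, the only gene of the epithelial list called higher with miR-101a, which many tissues express. Its mean was 61.4 CPM in control and 115.9 with miR-101a, so the narrow gap does not describe the other genes of that list. The summed level of the pigment genes lay below control in every miR-101a library, but not in every miR-29a library. The part of these tissues in the pigment gene values was not tested.

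**Figure D5:**
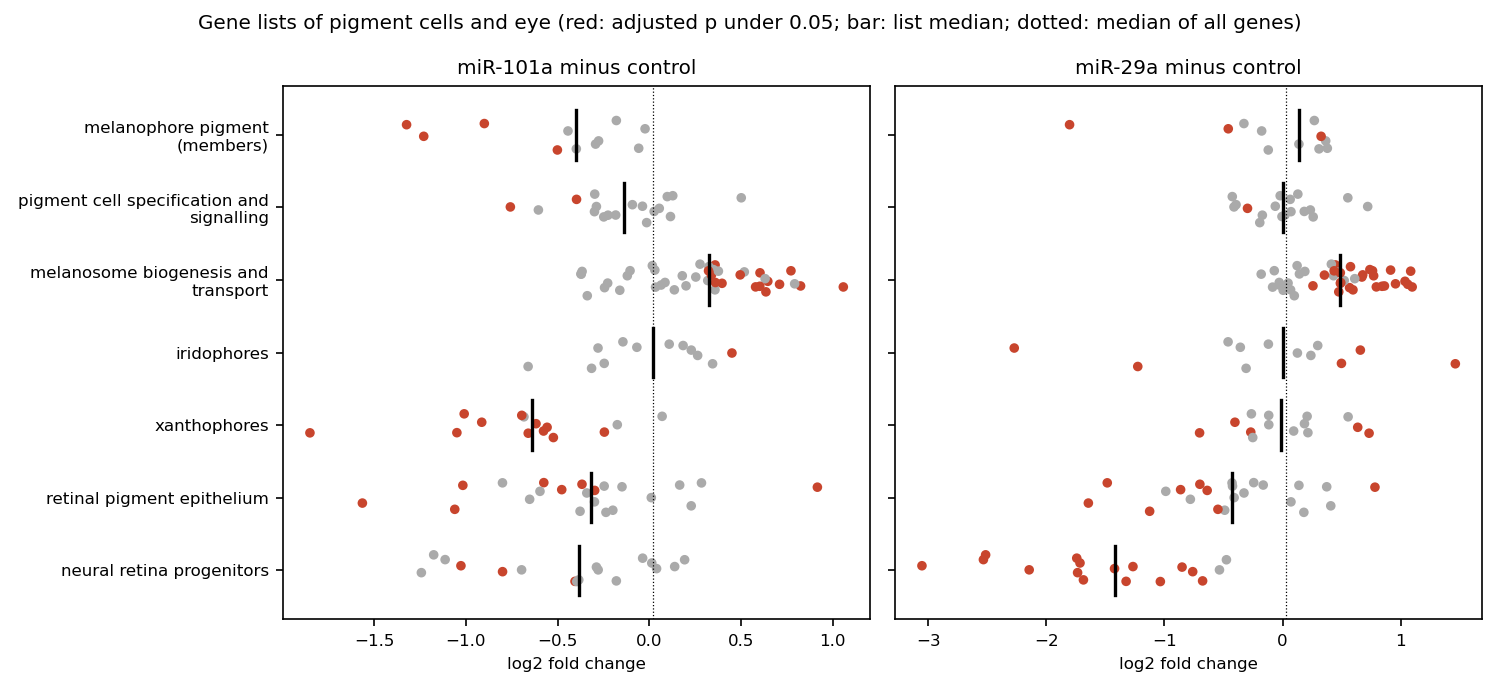
Log2 fold changes of the pigment genes and of 6 further gene lists, for miR-101a minus control (left) and miR-29a minus control (right), with 1 point per gene, red at an adjusted p under 0.05, a bar at the list median and a dotted line at the median of all genes. With miR-101a the medians are -0.40 for the pigment genes and -0.64 for xanthophores against 0.32 for melanosome biogenesis and transport; with miR-29a the neural retina median is -1.42.

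Genes elsewhere in the table that most resembled the mean profile of the 11 pigment genes were ranked by the root mean square difference of log2 deviation from control over the 12 libraries, among 17390 genes with a symbol and at least 1 CPM in control. The mean profile stood at -0.63, -0.51, -0.36 and -0.57 in miR-101a replicates 1 to 4 and at -0.20, -0.20, -0.35 and -0.06 with miR-29a. Each gene had the same weight in it, also the scarce MITF copy with 1 count in miR-29a replicate 3. With miR-29a it joins genes that moved in opposite directions, such as pmelb (-1.80) and pmela (0.33). The 8 closest genes were NNT (0.057), EML1 (0.081), FAM222B (0.082), usp4 (0.086), pou3f1 (0.087), NAA25 (0.093), NDST4 (0.094) and PIGN (0.097). Among the pigment genes, DCT lay closest to their own mean, at 0.137, and pmelb farthest, at 1.23.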

How the data were processed

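The members and the gene lists were chosen with earlier results of these data known. RNA was taken from whole animals, and libraries were made with a TruSeq v2 kit, which does not mark strand, per the labels' protocols; reads of a gene and an antisense partner cannot be told apart. Tools named in the submitters' processing notes are featureCounts 1.4.6-p4, STAR 2.4.1d and bcl2fastq 1.8.4, with genome build GRCz10. The authors deposited a table of raw counts per gene, and a table of RPKM. In 7554 genes the deposited RPKM matched counts divided by library totals recycled down the table (coefficient of variation of the implied length at most 0.0265%, against a median of 18.4% with each library's own total). The deposited RPKM values were therefore used only for gene length, and RPKM was recomputed without TMM scaling. The labels do not say that replicates are separate clutches, and p-values then reflect only the variation among these libraries, which may be technical. No pair of libraries within a group was identical (smallest chi-square per degree of freedom 1.63). Pairs across groups were not compared.

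Of 32105 identifiers 26269 had a symbol. Of 138 list entries 6 were not matched. Counts were tested in R 4.3.3 with edgeR 4.0.16 (filterByExpr minimum count 10, TMM, robust quasi-likelihood, all 12 libraries, Benjamini-Hochberg over 20872 genes, call at 0.05). All 11 pigment genes passed the filter. Standard errors are the log2 fold change divided by the square root of F. CPM uses full library totals times TMM factors. Steps were tested on simulated data, in which 200 genes were given a log2 change of 1 up or down with miR-101a. Of these, 51% were called, and 6 unchanged genes were called falsely. A gene that was not called may thus still have changed. Ratios within pairs were tested by two-sided exact permutation in SciPy 1.17.1. All members are named; from each other list, up to 3 genes called in each direction per comparison by smallest p, with RPE65, SOX10, KIT and GPR143 always; 1 gene that this rule names is not reported here. Alternatives were RLE scaling, DESeq2 1.42.0, limma 3.58.1 voom with quality weights, other filters, a replicate block, only the 8 libraries compared, and each library left out. Motif and sequence comparisons were not made here.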

Additional observations from a re-analysis of the deposited data

Results flagged for a closer look

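In groups of 4, a library counts as apart when its gap to the nearest other library takes a share of the group's range above Dixon's 95% critical value. Of 156 groups examined 18 met this, where chance gives about 1 in 20, and in 6 the library was miR-29a replicate 3. Of 39 groups of pigment genes and pair ratios, 3 met it. DCT in control was at 178 CPM in replicate 1 and 166 to 167 in the others. SLC24A5 with miR-101a was at 8.95 CPM in replicate 3 and 7.97 to 8.13 in the others. SLC45A2 with miR-29a was at 68.5 CPM in replicate 3 and 40.6 to 41.2 in the others.

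With miR-29a, replicate 3 also stood apart for the pigment cell genes KIT, at 2.02 CPM against 13.5 to 15.6, GPR143, at 24.6 against 10.3 to 12.2, and trpm1b, at 39.0 against 25.2 to 26.6. On the epithelial list it did so for RPE65 (ENSDARG00000007480), at 5.32 CPM against 0.716 to 1.48, and rdh5, at 10.2 against 5.48 to 6.19. Replicate 2 stood apart for slc2a11b, at 52.5 CPM against 67.0 to 68.3.

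With miR-101a, replicate 3 was apart for RGR, at 1.42 CPM against 2.88 to 3.12, and for RPE65 (ENSDARG00000094752), at 20.9 against 23.4 to 23.9. Replicate 2 was apart for plin6, at 2.97 CPM against 1.75 to 1.92. In control, replicate 3 was apart for CRX (ENSDARG00000043483), at 38.2 CPM against 26.4 to 26.6, for ATIC, at 217 against 235 to 238, and for slc2a15b, at 24.8 against 26.3 to 26.5. Control replicate 4 was apart for RGR, at 4.65 CPM against 5.39 to 5.51, replicate 1 for hmx4, at 18.9 against 16.6 to 16.9, and replicate 2 for trpm1b, at 27.9 against 26.3 to 26.5.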

How the results depend on the processing

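Over all alternatives and comparisons the pigment genes kept direction and side of the threshold in 543 values, gained a call in 43, lost one in 29 and changed sign in 9; named genes of the other lists did so in 1253, 15, 106 and 13. The counts from all 12 libraries were 4 pigment genes lower with miR-101a, 2 lower and 1 higher with miR-29a, and 1 lower and 4 higher in the direct comparison. For the other lists they were 23 lower and 17 higher, 28 and 31, and 17 and 22, and for all genes 1454 and 2451, 2481 and 3564, and 1927 and 1803.

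Fitting only the 8 libraries compared gave 9 pigment genes lower with miR-101a, 49 and 36 of the other lists and 4716 and 5339 of all genes. It gave 0 pigment genes higher with miR-29a, where 0 was also found with no filter and 2 with DESeq2. The direct comparison then had 9 genes of the other lists lower and 941 lower and 950 higher of all. Quality weights gave 9 lower, 50 and 36, and 5067 and 5711 with miR-101a; 3 pigment genes higher, 49 list genes higher, and 5646 and 5594 with miR-29a; and 2 and 9, 34 and 40, and 4504 and 3852 directly. With 1 library left out, miR-101a gave 2 to 9 pigment genes lower, 13 to 51 and 17 to 33 of the lists, and 931 to 5099 and 1738 to 4989 of all. For miR-29a these were 0 to 2 higher, 24 to 43 and 28 to 49, and 1877 to 5653 and 2826 to 5442. Directly they were 1 to 2 and 3 to 9, 12 to 36 and 17 to 44, and 1316 to 4657 and 1221 to 4486. For all genes the highest of these counts came without miR-29a replicate 3. The cause was not tested.

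Signs changed as follows. With single libraries left out, miR-101a minus control ran from -0.078 to 0.038 for OCA2 and from -0.21 to 0.033 for MITF (ENSDARG00000037833). The miR-29a minus control value ran from -0.036 to 0.23 for TYRP1 (ENSDARG00000056151), which was -0.014 with quality weights. It ran from -0.37 to 0.086 for SLC24A5 (0.058 with quality weights) and from -0.21 to 0.34 for KIT (0.30 with quality weights and 0.0018 with 8 libraries). Directly, KIT ran from -0.32 to 0.23 (0.19 with quality weights), GPR143 from -0.16 to 0.33 (-0.14 with quality weights) and RPE65 (ENSDARG00000007480) from -0.95 to 0.21. None of these was called in the fit of all 12 libraries.

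The pmela to pmelb log2 difference was 0.00033 to 0.16 with miR-101a, 1.97 to 2.56 with miR-29a and 1.87 to 2.46 directly, and that of TYRP1 was 0.09 to 0.18, -0.22 to -0.13 and -0.36 to -0.25, with an exact permutation p of at least 0.0571, the smallest possible there. Replicate numbers share nothing that the labels state. Deviations of same-numbered libraries correlated at -0.083 to 0.153, 0.080 to 0.353 and -0.207 to 0.406, and the own number was the best match in 2, 5 and 5 of 8 libraries, a hint from the data only. With a replicate block, 1357 lower and 2311 higher genes were called with miR-101a, 2512 and 3339 with miR-29a, and 1876 and 1619 directly. The block moved TYR with miR-101a to an edgeR adjusted p of 0.0627. Paired, the pmela to pmelb differences of miR-29a from control and from miR-101a had an exact permutation p of 0.125. That is the smallest p that 4 pairs can give.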
